A study of Mus musculus with 12 samples.

Results

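Coenzyme Q synthesis genes were followed in inguinal white adipose tissue (iWAT) of Atf4WT and Atf4AKO mice, at room temperature (RT) and after 24 h of cold exposure. The set was chosen by function, with earlier results of these data known, and names 10 genes: *Pdss1*, *Pdss2*, *Coq2*, *Coq3*, *Coq4*, *Coq5*, *Coq6*, *Coq7*, *Coq9* and *Coq10a*. Of these, 9 were among the 14159 genes with values in the 12 libraries and all 9 were among the 13404 tested, while *Coq4* was not analysed here. Atf4AKO mice carried floxed *Atf4* alleles together with *Adipoq*-Cre, which is active in adipocytes, and the Atf4WT littermates carried the floxed alleles (Atf4 fl/fl) without Cre, all on a C57BL/6 background. Each of the 4 groups (Atf4WT RT, Atf4AKO RT, Atf4WT cold and Atf4AKO cold) had 3 biological replicates, numbered 0 to 2, of polyadenylated RNA from whole iWAT, so cells without Cre were also sampled. The age of the mice is not given in the labels.

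Coenzyme Q, or ubiquinone, is the lipid that carries electrons within the inner mitochondrial membrane, from complexes I and II and from several dehydrogenases to complex III. Its isoprenoid tail comes from the mevalonate pathway and is assembled by a synthase made of PDSS1 and PDSS2. COQ2 joins the tail to a ring precursor, and a set of enzymes on the matrix side of the membrane then modifies the ring. The reduced form is also a lipid antioxidant. In thermogenic adipocytes this carrier serves a respiratory chain that is partly uncoupled from ATP synthesis.

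The promoters of both subunits of the tail synthase and of *Coq10a* are shown because *Pdss1* had the largest cold response of the set and its partner *Pdss2* had a small one, and because *Pdss1* and *Coq10a* were the only ones, of the 8 members with a promoter entry, with a match to any of 4 searched motifs. The letters are the 250 bases before the start in RefSeq (build GRCm38.p6), written 5′ to 3′ on the strand of the gene. They lie at chr2:22895272-22895521 (plus strand) for *Pdss1*, chr10:43221236-43221485 (plus strand) for *Pdss2* and chr10:128370038-128370287 (minus strand) for *Coq10a*, and capitals mark the motif.
Pdss1: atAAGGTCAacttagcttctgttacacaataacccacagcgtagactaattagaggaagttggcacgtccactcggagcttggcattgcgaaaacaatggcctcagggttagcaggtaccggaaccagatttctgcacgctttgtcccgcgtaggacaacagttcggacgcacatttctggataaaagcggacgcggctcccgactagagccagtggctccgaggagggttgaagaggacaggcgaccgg
Pdss2: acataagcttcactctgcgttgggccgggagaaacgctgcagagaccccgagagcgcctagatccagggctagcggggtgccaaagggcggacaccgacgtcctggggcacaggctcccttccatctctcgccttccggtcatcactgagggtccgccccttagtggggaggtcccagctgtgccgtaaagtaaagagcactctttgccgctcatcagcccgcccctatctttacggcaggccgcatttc
Coq10a: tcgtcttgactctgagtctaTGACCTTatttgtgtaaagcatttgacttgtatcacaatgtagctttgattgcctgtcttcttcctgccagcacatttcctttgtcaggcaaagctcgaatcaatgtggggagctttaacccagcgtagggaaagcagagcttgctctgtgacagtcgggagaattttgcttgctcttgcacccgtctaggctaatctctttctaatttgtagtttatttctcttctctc
The capitals are AAGGTCA, part of the site of the estrogen-related receptors, which regulate mitochondrial genes. It began 248 bases before the start of *Pdss1*, close to the edge of the window, and in *Coq10a* it lay on the opposite strand (as TGACCTT), beginning 230 bases before the start. This *Coq10a* start is at 128370037, and a second RefSeq start at 128368980, inside the gene as annotated in GENCODE, had no match in its window. RefSeq windows from 250 bases before to 50 bases after the start were found for 8 of the 9 members, 10 windows in all, and *Coq5* had no entry. AAGGTCA, searched on both strands, is present in 4.72% of the 32851 windows of all genes. The other motifs were CGCATGCG (the core of the NRF1 site, in 1.87% of windows), TGACGTCA (the cAMP response element, in 1.79%) and TTGCATCA (a composite element bound by ATF4, in 0.895%), and none of the member windows held any of these. A match describes the letters only, and no binding was measured.

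The values are reads of each gene scaled by the authors for the depth of the library, called normalized counts here, and a library held between 25719476 and 29105147 reads on these genes. *Atf4* itself checked the labels, since its count was 4107 to 5669 in Atf4WT RT and 5756 to 7644 in Atf4WT cold but 1470 to 1639 in Atf4AKO RT and 788 to 1578 in Atf4AKO cold libraries. The gene of the thermogenic uncoupling protein, *Ucp1*, rose with cold in each genotype (log2 fold change 7.67 in Atf4WT and 7.51 in Atf4AKO, limma, adjusted p = 1.32e-05 and 8.69e-06). The defining adipocyte genes *Adipoq* and *Plin1* were abundant in every group, with means of at least 62670 and 42948. With cold, *Adipoq* fell by 0.60 on the log2 scale in Atf4WT (adjusted p = 0.0148) and was at −0.36 in Atf4AKO iWAT (adjusted p = 0.119). It was the only one of 8 adipocyte markers called in either cold comparison, *Lep* being at −1.12 in Atf4WT (adjusted p = 0.0529), and the medians of the 8 were −0.12 in both. Markers of other cell types varied between libraries. The muscle score, the mean log2 value of the 7 listed of 10 muscle markers, was 11.41 in Atf4WT RT replicate 2, 9.96 in Atf4WT cold replicate 0 and 7.34 in Atf4AKO cold replicate 1, against 3.44 to 4.62 in the other libraries. The lymphocyte score, the mean log2 value of the 9 listed of 10 B cell markers and 10 of 10 T cell markers, was 7.34 to 9.78 in Atf4WT cold, 3.61 to 5.16 in Atf4AKO cold, 3.91 to 7.25 in Atf4WT RT and 4.13 to 5.41 in Atf4AKO RT libraries. The macrophage score, the mean log2 value of 7 listed of 8 macrophage markers, was 8.77 in Atf4WT cold replicate 1 and 8.07 in Atf4AKO cold replicate 1, against 10.18 to 11.25 in the other libraries. With bulk RNA, fewer cells of a type and less RNA per cell cannot be told apart.

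Cold exposure was first compared with RT in Atf4WT iWAT. Of the 9 members, 7 rose with an adjusted p-value under 0.05 and 0 fell. Over all tested genes, 17% rose and 14.9% fell by this rule. The differentially expressed gene (DEG) threshold, a fold change over 1.5 with an unadjusted p-value under 0.05, was passed upward by 4 members (*Pdss1*, *Coq3*, *Coq5* and *Coq7*), and by 10.9% of all genes. The 3 cold libraries lay above the 3 RT libraries for 8 members, and for 23.9% of all genes. The median log2 fold change of the members was 0.56, from −0.07 for *Coq2* to 1.60 for *Pdss1*, beside 0.0026 over all genes. In Atf4AKO iWAT, 7 members rose by the adjusted p-value and 0 fell, where 14.8% of all genes rose and 11% fell. Here 5 members passed the DEG threshold upward (8.3% of all genes), with *Coq10a* in addition, and 7 did not overlap between cold and RT (21.7% of all genes). The median was 0.68, from −0.01 for *Coq2* to 1.89 for *Pdss1*, beside −0.032 over all genes. The members that rose were *Pdss1*, *Coq3*, *Coq5*, *Coq6*, *Coq7*, *Coq9* and *Coq10a* in each genotype. Only 5 of them, *Pdss1*, *Coq3*, *Coq5*, *Coq7* and *Coq10a*, kept their calls in both genotypes under each of the 19 alternatives tried. Without the 3 libraries of highest muscle score, 5 members rose in each genotype, the medians were 0.48 and 0.59, and 2 members passed the DEG threshold in Atf4WT iWAT and 5 in Atf4AKO iWAT. The libraries left out were Atf4WT RT replicate 2, Atf4WT cold replicate 0 and Atf4AKO cold replicate 1. These groups therefore had fewer libraries in this fit, which also makes a call by the p-value harder to reach. In Atf4WT iWAT, *Coq3* (0.584, limma, adjusted p = 0.00542) and *Coq5* (0.564, 0.0347) kept that call. They left the DEG count because their fold changes were under 1.5. With the lymphocyte score as a covariate, the median in Atf4WT iWAT was 0.90 and 7 members passed the DEG threshold. This score did not overlap between Atf4WT cold (7.34 to 9.78) and Atf4WT RT (3.91 to 7.25) libraries. The adjusted values are thus an extrapolation, and the part of the score was not tested. Within Atf4WT RT the score was 7.25 in replicate 2, also the library of highest muscle score (11.41), against 4.24 and 3.91 in replicates 0 and 1. The lymphocyte and muscle fits are therefore not fully separate checks. With the adipocyte score (the mean log2 value of the 8 adipocyte markers) as a covariate, 7 members rose in each genotype and the medians were 0.65 and 0.68. Without the cold library of low macrophage score, 5 members rose in each genotype, 4 and 5 passed the DEG threshold, and the medians were 0.54 and 0.59. In Atf4AKO iWAT this library is the one also left out for its muscle score. The fold changes there are the same in both fits, so these are not separate checks. The p-values are from limma over all tested genes and measure only the spread between these libraries.

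**Figure D1:**
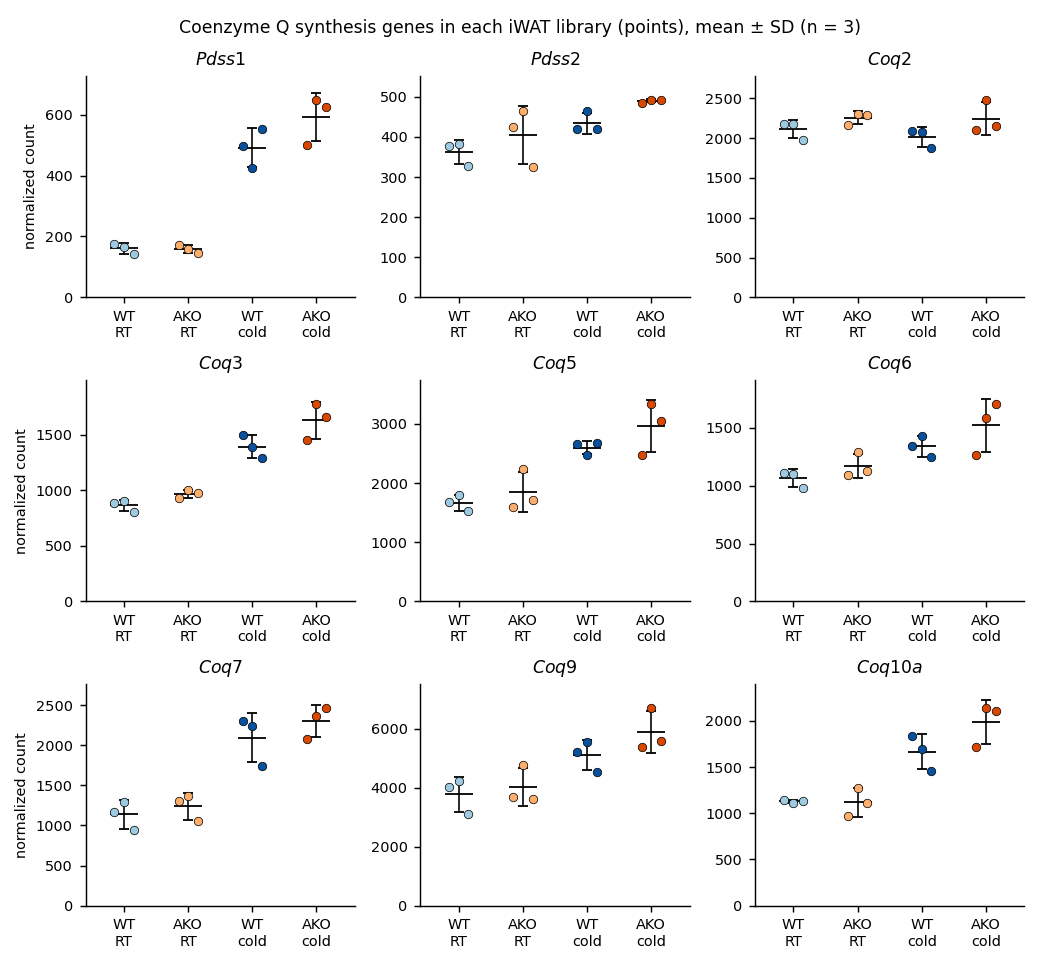
Normalized count (y axis, linear from 0) of the 9 coenzyme Q synthesis genes in the 12 iWAT libraries, with 1 panel per gene and 1 point per library, and with the mean ± SD of the 3 libraries of each group on the x axis. *Pdss1* separates cold from RT in both genotypes, whereas the *Coq2* groups overlap with cold at 1877 to 2486 and RT at 1982 to 2309.

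*Pdss1* and *Pdss2* encode the subunits of the synthase that builds the isoprenoid tail. *Pdss1* is listed as NM_019501 and spans 22895522 to 22940266 on the plus strand of chromosome 2 in GENCODE (mm10). Its normalized count in Atf4WT iWAT was 176, 166 and 141 at RT and 496, 424 and 553 after cold. In Atf4AKO iWAT it was 172, 157 and 145 at RT and 502, 650 and 626 after cold. Every cold library lay above every RT library, and the genotypes overlapped at each temperature. The log2 fold change was 1.60 in Atf4WT (3.03-fold, standard error 0.15, limma, adjusted p = 6.99e-05) and 1.89 in Atf4AKO iWAT (3.72-fold, standard error 0.15, adjusted p = 3.18e-05). Ordered by log2 fold change among the 13404 tested genes, *Pdss1* was at position 378 in Atf4WT and at position 69 in Atf4AKO iWAT. Its exons share 194 bases with *Abi1* and 215 bases with the pseudogene *A130006I12Rik*, both on the opposite strand, and the strand setting of the counting is not given in the sources used here.

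*Pdss2* (NM_001168289, chromosome 10, plus strand, 43221486 to 43464882) moved far less. Its count was 378, 383 and 328 at RT and 419, 464 and 419 after cold in Atf4WT, and 425, 464 and 326 at RT and 486, 493 and 492 after cold in Atf4AKO iWAT. The cold libraries lay above the RT libraries in each genotype, but the closest were only slightly apart. Its log2 fold change was 0.26 in Atf4WT (95% confidence interval −0.03 to 0.55, limma, adjusted p = 0.152) and 0.29 in Atf4AKO iWAT (0.0043 to 0.58, adjusted p = 0.123).

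The ratio of *Pdss1* to *Pdss2* reads within a library does not depend on how the libraries are scaled, and was chosen after the values of both genes were seen. It was 0.467, 0.432 and 0.429 in Atf4WT RT libraries and 1.18, 0.914 and 1.32 in Atf4WT cold libraries. In Atf4AKO it was 0.405, 0.339 and 0.444 at RT and 1.03, 1.32 and 1.27 after cold. *Pdss2* reads thus exceeded *Pdss1* reads in all 6 RT libraries, and *Pdss1* reads exceeded *Pdss2* reads in 5 of the 6 cold libraries. On the log2 scale it differed by 1.35 in Atf4WT (2.54-fold) and by 1.61 in Atf4AKO iWAT (3.05-fold), with a two-sided exact permutation p = 0.1 in each, the smallest that 3 libraries against 3 allow.

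**Figure D2:**
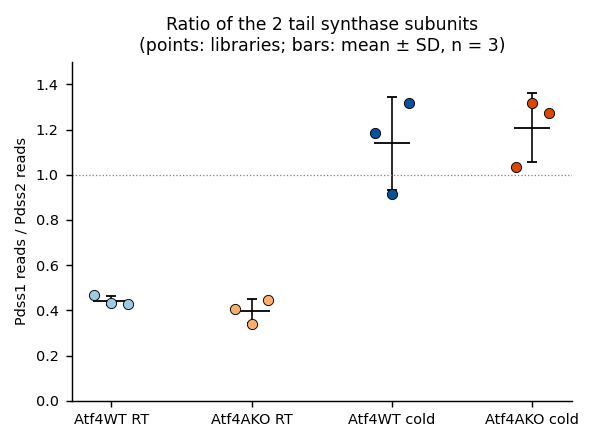
Reads of *Pdss1* divided by reads of *Pdss2* in each library (points, y axis linear from 0), with the mean ± SD (n = 3) of the 4 groups on the x axis and a dotted line at 1. The 6 RT libraries sit between 0.339 and 0.467 and the 6 cold libraries between 0.914 and 1.32.

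*Coq2*, whose product joins the tail to the ring precursor, is listed as NM_027978 and lies on the minus strand of chromosome 5 (100654723 to 100675140). Its count was 2179, 2183 and 1982 at RT and 2094, 2081 and 1877 after cold in Atf4WT iWAT. It was 2166, 2309 and 2297 at RT and 2108, 2486 and 2150 after cold in Atf4AKO iWAT. Cold and RT overlapped in each genotype. Its log2 fold change was −0.07 in Atf4WT (95% confidence interval −0.25 to 0.11, limma, adjusted p = 0.555) and −0.01 in Atf4AKO iWAT (−0.19 to 0.17, adjusted p = 0.944), and the intervals leave out a rise of 1.5-fold. The sign of these small values turned under some alternatives. The antisense gene *Gm15777* shares 459 bases with its exons.

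The methyltransferase genes rose together. *Coq3*, whose product performs both O-methylations of the ring, is listed as NM_172687 (chromosome 4, plus strand, 21879673 to 21912162) and overlaps no other annotated gene. Its count was 890, 902 and 809 at RT and 1498, 1395 and 1293 after cold in Atf4WT, and 929, 1001 and 978 at RT and 1452, 1781 and 1658 after cold in Atf4AKO iWAT. Cold and RT were well separated in each genotype. *Coq3* rose by 0.68 on the log2 scale in Atf4WT (standard error 0.09, limma, adjusted p = 0.000522) and by 0.75 in Atf4AKO iWAT (standard error 0.09, adjusted p = 0.000361). *Coq5*, whose product performs the C-methylation, is listed as NM_026504 (chromosome 5, plus strand, 115279666 to 115296972). Its count was 1682, 1798 and 1524 at RT and 2653, 2476 and 2671 after cold in Atf4WT, and 1599, 2231 and 1714 at RT and 2479, 3340 and 3052 after cold in Atf4AKO iWAT. These did not overlap either, although in Atf4AKO the highest RT and the lowest cold library were close. Its log2 fold change was 0.64 in Atf4WT (adjusted p = 0.00514) and 0.68 in Atf4AKO iWAT (adjusted p = 0.0046, limma).

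Of the hydroxylase genes, *Coq7* responded most. *Coq7* encodes a di-iron hydroxylase of the ring, is listed as NM_001304758 (chromosome 7, minus strand, 118509659 to 118533356) and overlaps no other annotated gene. Its count was 1170, 1298 and 944 at RT and 2302, 2237 and 1740 after cold in Atf4WT, and 1302, 1367 and 1052 at RT and 2079, 2370 and 2466 after cold in Atf4AKO iWAT. The lowest cold library exceeded the highest RT library in each genotype. *Coq7* rose by 0.88 on the log2 scale in Atf4WT (1.84-fold, standard error 0.15, limma, adjusted p = 0.00167) and by 0.90 in Atf4AKO iWAT (1.86-fold, standard error 0.15, adjusted p = 0.00177), which was second to *Pdss1* among the members. *Coq9* encodes the lipid-binding partner of COQ7 and is listed as NM_026452 (chromosome 8, plus strand, 94838321 to 94854895), with 38 bases shared with *Ciapin1* on the opposite strand. It was the member with the highest counts, at 4018, 4233 and 3113 at RT and 5221, 5569 and 4542 after cold in Atf4WT, and 3680, 4760 and 3620 at RT and 5393, 6711 and 5582 after cold in Atf4AKO iWAT. Cold lay above RT in each genotype. The log2 fold change was 0.44 in Atf4WT (adjusted p = 0.0403) and 0.56 in Atf4AKO iWAT (adjusted p = 0.0182, limma). The call in Atf4WT was lost without Atf4WT RT replicate 0 (0.49, adjusted p = 0.0626), RT replicate 2 (0.30, 0.138), cold replicate 0 (0.42, 0.0902) or cold replicate 1 (0.38, 0.127), and that in Atf4AKO without Atf4AKO RT replicate 0 (0.50, 0.0697), RT replicate 2 (0.49, 0.0598) or cold replicate 1 (0.46, 0.071). Without the 3 libraries of highest muscle score both were lost (0.29, adjusted p = 0.19, and 0.46, 0.0524), and the Atf4WT call was lost with only the groups compared in the fit (0.0544).

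*Coq6*, which encodes a flavin-dependent hydroxylase of the ring, is listed as NM_172582 (chromosome 12, plus strand, 84361657 to 84373796) and shares 163 exon bases with *Fam161b* on the opposite strand. Its count was 1114, 1104 and 979 at RT and 1342, 1432 and 1247 after cold in Atf4WT, and 1094, 1288 and 1124 at RT and 1268, 1584 and 1707 after cold in Atf4AKO iWAT. Cold and RT overlapped in Atf4AKO and not in Atf4WT iWAT. The log2 fold change was 0.33 in Atf4WT (adjusted p = 0.0496) and 0.37 in Atf4AKO iWAT (adjusted p = 0.0374, limma). The call in Atf4WT was lost when any 1 of the 6 libraries compared was left out, with log2 fold changes of 0.27 to 0.38 and adjusted p-values of 0.0571 to 0.15. It was also lost with no filter on low values (adjusted p = 0.0508), with TMM scaling (0.0504) and with edgeR (0.054). In Atf4AKO iWAT it was lost without Atf4AKO RT replicate 0 (0.32, adjusted p = 0.124), RT replicate 2 (0.34, 0.0933), cold replicate 1 (0.34, 0.113) or cold replicate 2 (0.28, 0.125), and with only the groups compared (0.0887). Without the 3 libraries of highest muscle score the values were 0.27 (adjusted p = 0.222) and 0.34 (0.136).

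*Coq10a* encodes a START-domain protein that binds coenzyme Q and is needed for its function in respiration. It is listed as NM_001081040 (chromosome 10, minus strand, 128363100 to 128368997) and overlaps no other annotated gene. Its count was 1141, 1115 and 1131 at RT and 1842, 1699 and 1462 after cold in Atf4WT, and 966, 1274 and 1114 at RT and 1720, 2140 and 2107 after cold in Atf4AKO iWAT. All cold libraries lay above all RT libraries. The log2 fold change was 0.56 in Atf4WT (1.47-fold, standard error 0.12, limma, adjusted p = 0.00627) and 0.83 in Atf4AKO iWAT (1.78-fold, standard error 0.12, adjusted p = 0.000932).

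**Figure D3:**
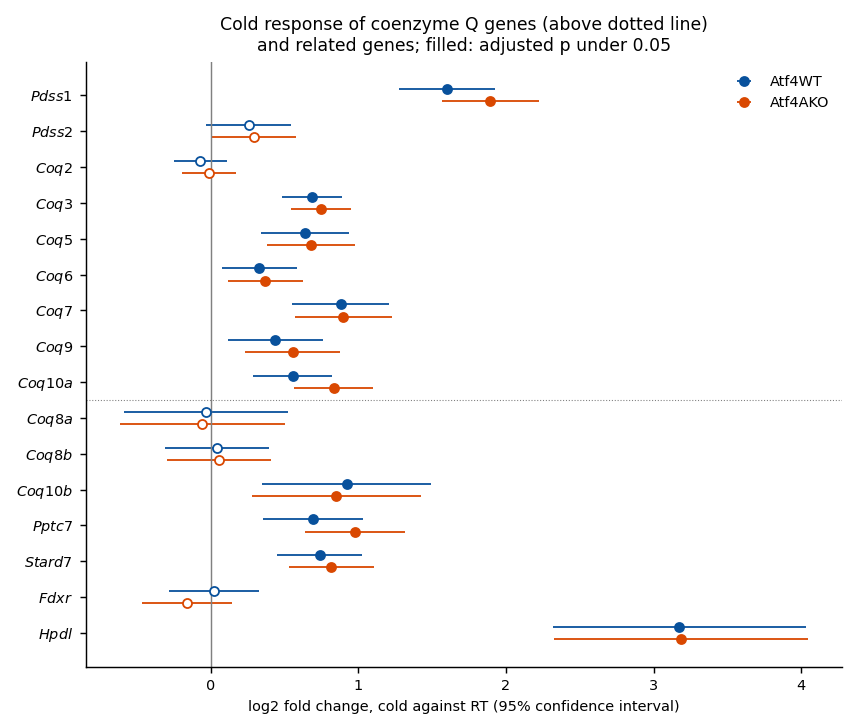
Log2 fold change between cold and RT iWAT (x axis) with its 95% confidence interval from limma, for the 9 members above the dotted line and 7 related genes below it, in Atf4WT (blue) and Atf4AKO (orange), with filled points for adjusted p under 0.05. *Pdss1* at 1.60 and 1.89 stands apart from the other members, which lie between −0.07 and 0.90, and *Hpdl* at 3.18 and 3.19 stands apart from all.

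Levels can be set side by side between genes only per length of transcript, so counts were divided by the length of the merged GENCODE exons in kb. At RT in Atf4WT iWAT the order was *Coq9* (1240 ± 195 normalized counts per kb, SD, n = 3), *Coq2* (806 ± 43.7), *Coq5* (550 ± 45.2), *Coq10a* (439 ± 5.04), *Coq6* (339 ± 23.9), *Coq3* (289 ± 16.8), *Coq7* (177 ± 27.9), *Pdss2* (60.9 ± 5.06) and *Pdss1* (37.9 ± 4.28). No neighbours in this order overlapped between libraries. Both subunits of the tail synthase were at the bottom, and *Pdss1* was the lowest. After cold, *Coq9* stayed at the top (1673 ± 171 per kb) and *Coq5* (857 ± 35.5) lay above *Coq2* (769 ± 46.4). *Coq2* overlapped with *Coq10a* (648 ± 74.7), and *Coq3* (466 ± 34.2) with *Coq6* (427 ± 29.5). *Coq7* followed at 325 ± 47.7, and *Pdss1* (116 ± 15.2) had passed *Pdss2* (72.8 ± 4.39). In Atf4AKO iWAT the order was the same as in Atf4WT at each temperature. *Pdss1* rose there from 37.2 ± 3.21 to 139 ± 18.7 per kb and *Pdss2* from 67.9 ± 12 to 82.2 ± 0.672, the libraries of the pair not overlapping at either temperature. In Atf4AKO libraries *Coq10a* overlapped with *Coq6* at RT, and after cold *Coq5* with *Coq2*, *Coq2* with *Coq10a* and *Coq3* with *Coq6*. The lengths are those of the annotation and not of the transcripts in use, so that the order can shift for genes with long unused exons.

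**Figure D4:**
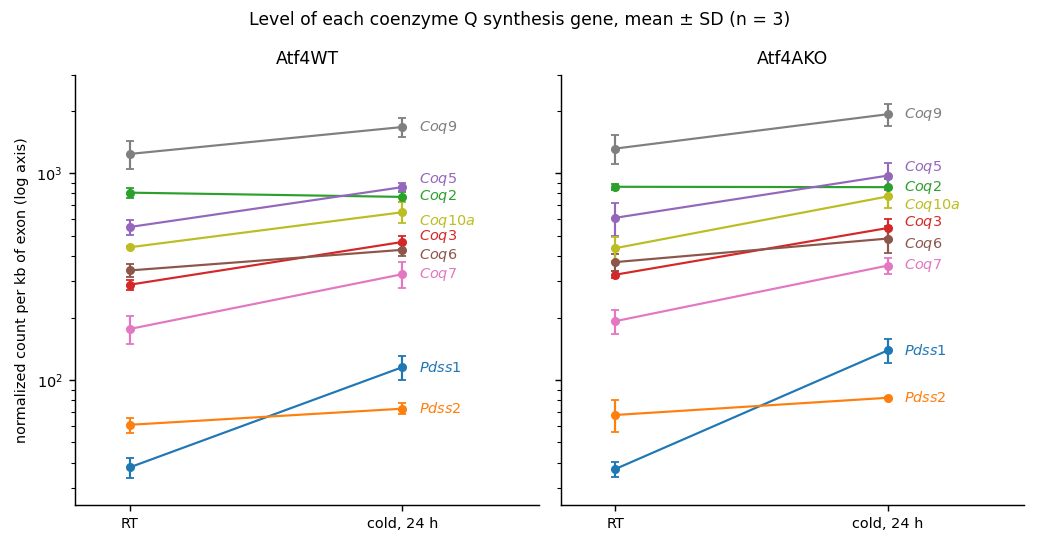
Normalized count per kb of merged exon (y axis, log scale) of the 9 members at RT and after 24 h of cold, with Atf4WT on the left and Atf4AKO on the right, as the mean ± SD of 3 libraries. The line of *Pdss1* crosses that of *Pdss2* in each genotype, from 37.9 to 116 per kb in Atf4WT, and *Coq9* stays highest.

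The genotypes were then compared, which asks whether loss of ATF4 in adipocytes altered these genes. After cold, all 9 members had a positive log2 difference in Atf4AKO against Atf4WT iWAT, as had 7955 of the 13404 tested genes. The values lay between 0.15 for *Coq7* and 0.27 for *Pdss1*, with a median of 0.18 beside 0.046 over all genes. None of the 9 reached an adjusted p-value under 0.05 (limma, 0.0298% of all genes in either direction), and 0 did with edgeR or DESeq2. The DEG threshold was passed by 0 members (6.4% of all genes in either direction). An unadjusted p-value under 0.05 was found for 1 member, *Coq3*, at 0.22 (95% confidence interval 0.02 to 0.42, adjusted p = 0.364), and for 11.7% of all genes in either direction. The Atf4AKO libraries lay above the Atf4WT libraries for 2 members, *Pdss2* and *Coq2*, and for 8.68% of all genes. For *Pdss1* the difference was 0.27 (−0.06 to 0.60, adjusted p = 0.526), for *Coq10a* 0.25 (−0.02 to 0.52), for *Coq9* 0.20 (−0.12 to 0.53) and for *Coq5* 0.18 (−0.12 to 0.47). The lymphocyte score did not overlap between these 2 groups, as given above. With it as a covariate all 9 differences were negative, with a median of −0.098, and its part in the result was not tested further. The adipocyte score was 16.12 to 16.43 in Atf4WT cold and 16.40 to 16.71 in Atf4AKO cold libraries, and with it as a covariate the median was 0.080.

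At RT the differences between Atf4AKO and Atf4WT iWAT lay between −0.02 for *Pdss1* and 0.16 for *Coq3*, with a median of 0.13 beside 0.0056 over all genes. With limma, 0 members reached an adjusted p-value under 0.05 (0.00746% of all genes in either direction), 0 an unadjusted p-value under 0.05 (1.53% in either direction) and 0 the DEG threshold (0.463% in either direction), and edgeR and DESeq2 also gave 0 by the adjusted p-value. The libraries of *Coq3* alone did not overlap, with Atf4AKO at 929 to 1001 against 809 to 902 in Atf4WT, which 3.32% of all genes matched. The cold response in Atf4AKO minus that in Atf4WT iWAT, which uses the same libraries, was largest for *Pdss1* at 0.29 (95% confidence interval −0.17 to 0.76, limma, adjusted p = 0.977) and *Coq10a* at 0.28 (−0.10 to 0.66, adjusted p = 0.923). It was between 0.02 and 0.12 for the other members, with a median of 0.059 beside 0.035 over all genes. By the adjusted p-value 0 members differed (0% of all genes) with limma, edgeR or DESeq2, 0 had an unadjusted p-value under 0.05 (6.92% of all genes in either direction), and 0 passed the DEG threshold (4.63% of all genes in either direction). A difference in response of up to 1.69-fold for *Pdss1* thus lay within the interval.

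Genes that act with the pathway were taken from a list of 8, of which 7 were tested. With cold, 4 of the 7 rose in each genotype and 0 fell by the adjusted p-value. Of all genes, 17% rose and 14.9% fell in Atf4WT, and 14.8% rose and 11% fell in Atf4AKO iWAT. The medians of the 7 were 0.69 in Atf4WT and 0.82 in Atf4AKO iWAT, beside 0.0026 and −0.032 over all genes. *Hpdl* encodes a mitochondrial dioxygenase-like enzyme that has been placed in the synthesis of the ring precursor. It is a gene without introns in the annotation (NM_146256, chromosome 4, minus strand, 116819904 to 116821707). Its count was 38.6, 49.1 and 23.2 at RT and 386, 393 and 231 after cold in Atf4WT, and 59.5, 47.8 and 23.2 at RT and 331, 536 and 302 after cold in Atf4AKO iWAT. The lowest cold library was several times the highest RT library. *Hpdl* rose by 3.18 on the log2 scale in Atf4WT (9.03-fold, standard error 0.39, limma, adjusted p = 0.000311) and by 3.19 in Atf4AKO iWAT (9.11-fold, standard error 0.39, adjusted p = 0.000348), at positions 72 and 19 of the 13404 genes. The rise of *Hpdl* thus exceeded that of each member, and its genotype difference after cold was 0.20 (95% confidence interval −0.66 to 1.06, adjusted p = 0.88).

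The kinase-like regulators *Coq8a* and *Coq8b* are paralogs whose products support the complex of ring enzymes. *Coq8a* (NM_023341) had 2290, 2846 and 2365 counts at RT and 1947, 3429 and 2161 after cold in Atf4WT, and 2126, 2732 and 2537 at RT and 1639, 3333 and 2404 after cold in Atf4AKO iWAT. Its cold libraries were spread on both sides of the RT libraries, and the log2 fold changes were −0.03 (95% confidence interval −0.59 to 0.53) and −0.06 (−0.61 to 0.50). *Coq8b* (NM_133770) had 1205, 1208 and 1076 counts at RT and 1299, 1408 and 937 after cold in Atf4WT, with a log2 fold change of 0.04 (−0.31 to 0.39), and 0.06 (−0.29 to 0.41) in Atf4AKO iWAT. Adjusted p-values were between 0.815 and 0.939 for both genes with limma. Reads of *Coq8b* may include those of *Gm15567* (antisense) and *Gm44641*, which share 1430 and 881 of its exon bases.

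*Coq10b*, the paralog of *Coq10a*, had 763, 842 and 472 counts at RT and 1463, 1194 and 1183 after cold in Atf4WT, and 784, 1158 and 558 at RT and 1257, 1514 and 1566 after cold in Atf4AKO iWAT. Cold lay above RT in each genotype despite a wide spread at RT. It rose by 0.92 on the log2 scale in Atf4WT (adjusted p = 0.0204) and by 0.85 in Atf4AKO iWAT (adjusted p = 0.0337, limma). The first call was lost without Atf4WT RT replicate 2 (0.67, adjusted p = 0.0678) or cold replicate 0 (0.82, 0.0612), and the second without Atf4AKO RT replicate 0 (0.84, 0.0886), RT replicate 2 (0.59, 0.111), cold replicate 1 (0.82, 0.0908) or cold replicate 2 (0.79, 0.0906). Without the 3 libraries of highest muscle score both calls were lost (0.57, adjusted p = 0.157, and 0.82, 0.0577), and the second was lost with only the groups compared in the fit (0.0506). *Pptc7* encodes a mitochondrial phosphatase that is required for normal coenzyme Q levels, and had 921, 1095 and 795 counts at RT and 1478, 1517 and 1507 after cold in Atf4WT iWAT. In Atf4AKO iWAT it had 898, 910 and 771 at RT and 1313, 1925 and 1907 after cold. It rose by 0.69 in Atf4WT (adjusted p = 0.00663) and by 0.98 in Atf4AKO iWAT (adjusted p = 0.00138), and shares 1059 exon bases with *Rad9b* on the opposite strand. *Stard7*, whose product moves phosphatidylcholine and coenzyme Q between membranes, rose from 3357 ± 349 to 5583 ± 295 (SD, n = 3) in Atf4WT and from 3504 ± 471 to 6197 ± 951 in Atf4AKO iWAT (log2 fold change 0.74 and 0.82, adjusted p = 0.00207 and 0.00147). *Fdxr*, which encodes the reductase that passes electrons to ferredoxins, was at 0.02 and −0.16 (adjusted p = 0.925 and 0.424).

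Of 11 tested genes of the mevalonate pathway and its isoprenoid branches, 3 rose and 1 fell in Atf4WT iWAT. In Atf4AKO iWAT 3 rose and 0 fell, and the medians were 0.39 and 0.36. Not all of the 11 lie upstream of the tail, since *Nus1* and *Dhdds*, described below, belong to the dolichol branch. Over all genes, 17% rose and 14.9% fell in Atf4WT and 14.8% rose and 11% fell in Atf4AKO iWAT. With 11 genes, counts of this size cannot be told apart from those shares, and no test over the list was run. *Hmgcs1*, which encodes the synthase that makes HMG-CoA, rose from 6847 ± 216 to 14498 ± 3184 in Atf4WT and from 7000 ± 553 to 18086 ± 1295 in Atf4AKO iWAT (SD, n = 3; log2 fold change 1.06 and 1.37, limma, adjusted p = 0.000384 and 9.73e-05). *Pmvk*, which encodes phosphomevalonate kinase, rose by 0.73 and 0.70 (adjusted p = 0.00274 and 0.00411). *Nus1*, which encodes a subunit of the synthase of dolichol precursors, rose by 0.43 and 0.60 (adjusted p = 0.00191 and 0.00035). *Dhdds*, which encodes its catalytic partner, fell by 0.30 on the log2 scale in Atf4WT iWAT (adjusted p = 0.0187) and was at −0.18 in Atf4AKO iWAT (adjusted p = 0.129). The call in Atf4WT was lost without Atf4WT RT replicate 1 (−0.24, adjusted p = 0.0759) or cold replicate 2 (−0.26, 0.0622).

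Of 12 tested enzymes that pass electrons to ubiquinone, 4 rose and 2 fell in each genotype, and the medians were 0.27 and 0.33. By the same rule 17% of all genes rose in Atf4WT and 14.8% in Atf4AKO iWAT. The number that fell was near the share of all genes that fell, 14.9% in Atf4WT and 11% in Atf4AKO iWAT. *Sdhd* and *Sdhb*, which encode complex II subunits, rose by 1.12 and 0.62 in Atf4WT and by 1.17 and 0.69 in Atf4AKO iWAT (adjusted p of at most 0.00622, limma). *Etfdh*, which encodes the oxidoreductase that brings in electrons from fatty acid oxidation, rose by 1.11 and 1.32 (adjusted p = 0.000607 and 0.000269), and *Gpd2*, which encodes the mitochondrial glycerol-3-phosphate dehydrogenase, rose by 1.08 and 1.26 (adjusted p = 0.00304 and 0.00165). *Sqor*, for sulfide oxidation, fell by 0.74 and 0.51 on the log2 scale (adjusted p = 0.000796 and 0.00666), and *Chdh*, for choline oxidation, fell by 0.70 and 0.58 (adjusted p = 0.00825 and 0.024). The *Chdh* call in Atf4AKO iWAT was lost without Atf4AKO RT replicate 1 (−0.45, adjusted p = 0.0852), RT replicate 2 (−0.57, 0.0568), cold replicate 0 (−0.48, 0.0746) or cold replicate 1 (−0.56, 0.0685). In complex III, which oxidizes ubiquinol, 8 of 9 genes rose in Atf4WT and 7 of 9 in Atf4AKO iWAT, beside 17% and 14.8% of all genes. Among the 9, 0 fell, and the medians were 0.86 and 0.81. The counts that rose differ between the genotypes by *Uqcrq*, a small subunit named here after its values were seen. It was at 0.63 in Atf4WT (adjusted p = 0.0268) and 0.56 in Atf4AKO iWAT (adjusted p = 0.0518). *Uqcr11*, also named after its values were seen, just missed a call in Atf4WT (0.51, limma, adjusted p = 0.0501). In Atf4AKO iWAT *Uqcr11* was at 0.42 (adjusted p = 0.11). Of the 19 alternatives, 6 lost the call of *Uqcrq* in Atf4WT, among them the fit without the 3 libraries of highest muscle score (0.40, adjusted p = 0.153), and 7 gave *Uqcrq* a call in Atf4AKO iWAT. The highest was *Uqcrfs1*, the iron-sulfur subunit, at 1.09 and 1.11 (adjusted p = 0.000647 and 0.000685). After cold, 0 genes of these 3 lists differed between the genotypes by the adjusted p-value, and an unadjusted p-value under 0.05 was found for 1 of 11 isoprenoid genes, 1 of 12 electron donors and 0 of 9 complex III genes, beside 11.7% of all genes.

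**Figure D5:**
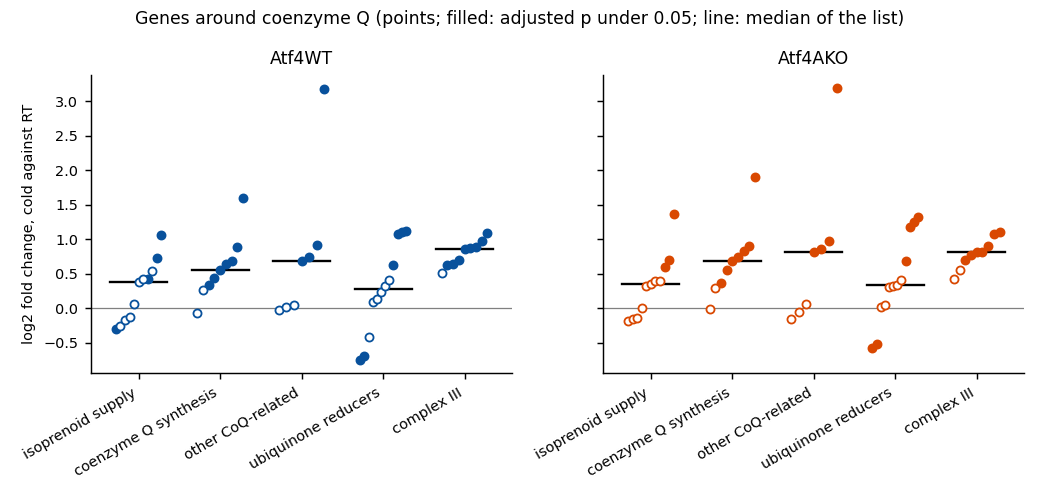
Log2 fold change between cold and RT iWAT (y axis) of each tested gene (points, filled for adjusted p under 0.05) in 5 gene lists (x axis), with Atf4WT on the left and Atf4AKO on the right and a line at the median of each list. The medians of the coenzyme Q genes, 0.56 and 0.68, lie above those of isoprenoid supply (0.39 and 0.36) and of the ubiquinone reducers (0.27 and 0.33). They lie below those of the other coenzyme Q related genes (0.69 and 0.82) and complex III (0.86 and 0.81). The isoprenoid supply list includes genes of the dolichol branch.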

How the data were processed

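Polyadenylated RNA of whole iWAT was sequenced on strand-specific libraries from 12 mice, 3 in each of 4 groups. Per the labels, the authors mapped reads with STAR to mm10, counted them with featureCounts and normalized with DESeq2. The deposited values are a normalized signal, the read count of a gene divided by the size factor of the library. Dividing by the smallest value of a library returned whole reads for 100% of values (tolerance 0.001 reads, largest deviation 0.000313), between 25719476 and 29105147 per library. Every column of values was used. Genes were tested with limma 3.58.1 in R 4.3.3 on log2(normalized count + 1), with a trend of the variance, the means of the 4 groups and Benjamini-Hochberg adjustment over 13404 genes, namely those whose mean normalized count was 10 or more. The pseudocount understates the fold changes of low genes. The test was checked on simulated data. Groups came from the sample titles. Replicates differed by more than counting error (chi-square of 34.5 to 69.8 per degree of freedom). Ratios were compared with two-sided exact permutation tests. Alternatives were pseudocounts of 0.5 and 5, no filter, a minimum mean of 50, only the groups compared, 75th percentile and TMM scaling, edgeR 4.0.16 (quasi-likelihood) and DESeq2 1.42.0 on the recovered reads, the replicate number as a block, lymphocyte or adipocyte score as a covariate, and leaving out each library. A fit without the 3 libraries of highest muscle score was added after seeing the data. Positions, exon lengths and overlapping genes came from GENCODE M21, and promoters from RefSeq. Named genes were all members, the direct partners *Coq8a*, *Coq8b*, *Coq10b* and *Pptc7*, and genes of the related lists with an adjusted p-value under 0.05 in a cold comparison. Complex III was given by counts and its highest gene, with *Uqcrq* and *Uqcr11* named after their values were seen. *Fdxr* was named as the remaining gene of its list, and 1 gene of a related list is not reported here and is left out of its counts. The members, lists and motifs were chosen with earlier results of these data known. Figures were drawn with matplotlib 3.10.9 in Python 3.11.15.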

Additional observations from a re-analysis of the deposited data

How the results depend on the processing

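With 3 libraries in a group, the smallest exact permutation p is 0.1, and depth was similar between libraries. The cold calls of *Pdss1*, *Coq3*, *Coq5*, *Coq7* and *Coq10a* held in both genotypes under each of the 19 alternatives, whereas those of *Coq6* were lost in 10 and 6 and those of *Coq9* in 6 and 4 alternatives in Atf4WT and Atf4AKO iWAT. For Atf4AKO iWAT, the fits without cold replicate 1 and without the highest muscle scores give the same fold changes and are not separate. Leaving out 1 library gave 5 to 6 members by the adjusted p-value and 3 to 5 past the DEG threshold in Atf4WT iWAT (3 without Atf4WT RT replicate 2), with medians of 0.48 to 0.62, and 5 to 7, 4 to 6 and medians of 0.58 to 0.80 in Atf4AKO iWAT. Over all alternatives 0 members were called between the genotypes.

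The lymphocyte score as a covariate gave 7 members past the DEG threshold and a median of 0.90 for cold in Atf4WT iWAT, a median of −0.098 between the genotypes after cold and of −0.245 for the difference of the cold responses. The score overlapped neither between cold and RT in Atf4WT nor between the genotypes after cold, so these values are extrapolations. Atf4WT RT replicate 2 was the highest RT library in both the lymphocyte (7.25) and the muscle score (11.41), so the fits with these scores are not fully separate. Without the 3 libraries of highest muscle score, 2 members passed the DEG threshold in Atf4WT iWAT. Among the related genes, the calls in Atf4WT iWAT of *Sqor* (−0.51, adjusted p = 0.0574), *Chdh* (−0.50, 0.234) and *Dhdds* (−0.14, 0.476) were lost with the lymphocyte score in limma, and those of *Chdh* in Atf4AKO iWAT (−0.56, 0.0553), *Uqcrq* in Atf4WT and *Coq10b* in both genotypes without the libraries of highest muscle score. The cause was not tested.

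Signs turned only for values without a call. With the lymphocyte score, the difference between the genotypes after cold was −0.034 for *Pdss1*, −0.053 for *Pdss2*, −0.087 for *Coq2*, −0.098 for *Coq3*, −0.25 for *Coq5*, −0.17 for *Coq6*, −0.44 for *Coq7*, −0.36 for *Coq9* and −0.077 for *Coq10a*, and that of the cold responses was −0.039 for *Coq10a*. With the adipocyte score, *Coq7* was at −0.0091 between the genotypes after cold. For cold in Atf4WT iWAT, *Coq2* was at 0.13 and 0.0046 with the lymphocyte and the adipocyte score. *Coq8a* was at 0.0068 with DESeq2, 0.19 and 0.13 with these scores, and 0.093 without the 3 libraries of highest muscle score, where *Coq8b* was at −0.071. Leaving out 1 library gave −0.28 to 0.13 for *Coq8a* and −0.074 to 0.22 for *Coq8b*. For cold in Atf4AKO iWAT it gave −0.084 to 0.035 for *Coq2*, −0.30 to 0.21 for *Coq8a* and −0.079 to 0.20 for *Coq8b*, which was at −0.0071 with 75th percentile scaling.

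The labels tie the replicate numbers to no shared litter, batch or day. Deviations from the group means correlated between −0.19 and 0.39, with 9 of 18 pairs over 0.1, all 6 pairs of replicate 1 at 0.18 to 0.39, and 6 of 12 libraries correlating best with their own number. Since not every pair was over 0.1, the numbers were not taken as pairing the samples. The cold libraries of replicate 1 were also those of low macrophage score, 8.77 in Atf4WT and 8.07 in Atf4AKO iWAT. Whether the libraries of replicate 1 share a batch cannot be told from the labels and was not tested. With the replicate block, 7 members rose with cold in each genotype, 4 and 5 passed the DEG threshold and 0 differed between the genotypes. The medians were 0.56, 0.68, 0.18, 0.13 and 0.059 as before, which the design fixed in advance. Every group holds each replicate number, so the block can change the p-values but not the log2 fold changes.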
